A study of Mus musculus with 6 samples.

Results

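The fast-fibre contractile isoforms are 10 named genes of gastrocnemius (GAS) muscle, chosen by symbol from the 22027 genes of the expression table. They are the fast troponins *Tnnc2*, *Tnni2* and *Tnnt3*, the myosin light chains *Mylpf* and *Myl1*, the tropomyosin *Tpm1*, the Z-disc genes *Actn3* and *Myoz1*, the calcium buffer *Pvalb* and the calcium pump *Atp2a1*. RNA-seq of poly(A)-selected RNA was made from GAS muscle of 3 muscle-specific *Tet3* knockdown (mKD) mice and 3 wild-type (WT) littermates, with 1 library per mouse. The study asked how reduced TET3, an enzyme that oxidises 5-methylcytosine in DNA, affects insulin sensitivity of muscle. The mKD mice carried *Tet3* fl/fl alleles and the HSA-Cre79 transgene, in which the human skeletal actin promoter drives Cre recombinase in muscle fibres, so that other cell types of the tissue keep the gene. The WT mice were *Tet3* floxed littermates. All were female, aged 14 weeks and on regular chow, and the labels also give each sample a time of 48 h, which the paper does not explain for mice.

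Skeletal muscle fibres are fast or slow, and many contractile proteins exist in a fast and a slow form encoded by separate genes. In a fast fibre, calcium released from the sarcoplasmic reticulum binds troponin C, the troponin complex then moves tropomyosin on the thin filament, and myosin can pull on actin. Parvalbumin and the SERCA1 pump take the calcium away again, which lets fast fibres relax quickly, and mouse GAS is largely a fast muscle.

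Beside the background of all genes, the 10 isoforms leaned towards higher counts in mKD muscle. All 10 were tested and all 10 had a positive log2 fold change, mKD over WT, against 51.1% of the 12322 genes tested. Their median log2 fold change was 0.26 (range 0.12 to 0.66), against 0.0096 over all genes tested. *Tnnc2*, *Tnni2*, *Pvalb* and *Myoz1* were higher in mKD at 1.2-fold with p under 0.05, taken here as unadjusted (limma), which is 4 of 10, against 8.31% of all genes tested. None of the 10 was lower, against 9.51% of all genes. None passed an adjusted p of 0.05 in limma or in edgeR, where 0.0162% of all genes did in each tool, all of them lower, while 4 of the 10 had an unadjusted p under 0.05 against 18.1% of all genes. With DESeq2 on the reads recovered from the table, *Tnnc2* (adjusted p = 0.012) and *Tnni2* (adjusted p = 0.029) passed 0.05 as higher, against 1.5% of all genes that were higher and 2.84% that were lower. Without WT library 2 the count by the 1.2-fold cut-off was still 4, but it was 0 without WT library 1, 1 without WT library 3, 1 without mKD library 1, 2 without mKD library 3, and 0 of 10 without mKD libraries 1 and 3, where 3.73% of all genes were higher. It was also 0 of 10 when no filter on low counts was applied. Over all genes with a read, 2291 passed the cut-off then in either direction, against 2196 with the filter. Leaving out 1 library at a time gave 1467 to 2304 in either direction over all genes tested. The share that was higher was not worked out for these settings. Of the isoforms, 7 have short transcripts, and among the 1234 genes with the shortest transcripts, 204 to 1463 nucleotides, 29.2% were higher by the same cut-off and 84.4% had a positive fold change. Because this is bulk tissue, more fast fibres and more RNA of these genes per fibre cannot be told apart.

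*Tet3* itself had normalised counts of 425, 318 and 472 in the mKD libraries and 594, 536 and 708 in the WT libraries, with no overlap (log2 fold change -0.60, standard error, SE, 0.18, limma adjusted p = 0.18). Total reads were 28050939 to 32148270 in the mKD libraries and 16219227 to 26705724 in the WT libraries. At this depth each isoform had at least 32423 reads in each library, so counting error is small beside the spread between mice. All 6 markers of skeletal muscle fibres had reads in each library. Of these, 1, *Ttn*, was lower in mKD without overlap (log2 fold change -0.99, SE 0.16), against 12.7% of all genes tested. When each library's trend over the longest annotated transcript was removed, none of the 6 passed the 1.2-fold cut-off in limma. Summed markers of Schwann cells and nerve were 39925, 1862 and 12389 in the mKD libraries and 2493, 2456 and 2449 in the WT libraries. Summed adipocyte markers were 5129, 1065 and 3845 in the mKD libraries and 1193, 858 and 13.9 in the WT libraries, and *Adipoq*, *Plin1*, *Lep* and *Retn* were at 0 in WT library 3. Endothelial markers summed to 4868 to 6153 in the mKD libraries and 8786 to 9165 in the WT libraries. Of those 6 genes, 5 were lower by the 1.2-fold cut-off, against 9.51% of all genes. The part of nerve, fat and vessel RNA in the isoforms' values was not tested.

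RefSeq promoters, from 250 bases before to 50 bases after the annotated start on GRCm38.p6, were matched for 6 of the 10 isoforms. *Tnni2*, *Tnnt3*, *Actn3* and *Myoz1* are named only. The promoters of *Pvalb* and *Tnnc2*, with the 2 highest fold changes of those matched, and of *Atp2a1* and *Myl1*, with the 2 lowest, are shown so that the letters at both ends of the range can be read. Capitals mark matches, on either strand, to an E-box (CANNTG, the site type of the MyoD family), a relaxed MEF2 site, the core of the MEF3 site of muscle promoters (AGGTTTC) and a TATA box (TATAAA). They lie at chr15:78206351-78206650, chr2:164779685-164779984, chr7:126463024-126463323 and chr1:66945007-66945306, in the order printed, and all 4 genes are on the minus strand.
Pvalb: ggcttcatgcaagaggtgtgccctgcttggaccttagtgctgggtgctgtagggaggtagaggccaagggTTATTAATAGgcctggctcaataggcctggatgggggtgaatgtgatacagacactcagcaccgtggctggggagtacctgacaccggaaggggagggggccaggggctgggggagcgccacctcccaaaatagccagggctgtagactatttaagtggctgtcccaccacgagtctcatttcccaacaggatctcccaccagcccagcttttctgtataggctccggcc
Tnnc2: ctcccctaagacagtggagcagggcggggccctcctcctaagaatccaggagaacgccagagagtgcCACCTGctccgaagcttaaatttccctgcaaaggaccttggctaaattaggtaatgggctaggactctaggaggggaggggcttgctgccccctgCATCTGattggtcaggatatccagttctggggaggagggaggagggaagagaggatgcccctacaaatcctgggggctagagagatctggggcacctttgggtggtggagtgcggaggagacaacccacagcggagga
Atp2a1: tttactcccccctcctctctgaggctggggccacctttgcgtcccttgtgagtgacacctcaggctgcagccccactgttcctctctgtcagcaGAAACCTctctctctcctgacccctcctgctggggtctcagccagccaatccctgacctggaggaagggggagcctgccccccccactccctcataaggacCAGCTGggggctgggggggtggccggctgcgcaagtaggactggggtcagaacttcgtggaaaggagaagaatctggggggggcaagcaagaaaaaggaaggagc
Myl1: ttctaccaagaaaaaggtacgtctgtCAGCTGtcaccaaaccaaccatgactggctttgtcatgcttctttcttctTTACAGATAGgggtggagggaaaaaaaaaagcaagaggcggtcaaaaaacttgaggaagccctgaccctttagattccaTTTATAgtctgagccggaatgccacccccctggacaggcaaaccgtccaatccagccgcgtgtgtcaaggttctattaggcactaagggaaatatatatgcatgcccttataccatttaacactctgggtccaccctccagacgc

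*Tnnc2* held E-boxes whose first bases lie at -183 and -88 from the start, and *Atp2a1* held an E-box at -55 and a MEF3 core at -156. *Myl1* held an E-box at -224, a MEF2-type match at -174 and a TATA match at -95. *Pvalb*, at this start, held a MEF2-type match at -180 and no E-box, whereas its second annotated start (chr15:78204188-78204487) held E-boxes at -111 and 18. The promoters of *Mylpf* (E-box at -51) and *Tpm1* (E-box at -198) had no match to the other marked motifs. An E-box was thus found for 6 of 6 isoforms. Counted by promoter, with both starts of *Pvalb*, it was in 6 of 7, against 72.3% of the 32851 promoters searched. A MEF2-type match was in 2 of the 7, against 7.98% of all promoters. A MEF3 core was in 1 of 7, against 4.64%, and a TATA match in 1 of 7, against 13.6%. The full MEF3 motif TCAGGTTTC was found in none of the 7, against 0.429% of all promoters. A relaxed CArG pattern, CC and GG with any 6 bases between them, was in all 7 and in 73.3% of all promoters. It takes in the site of serum response factor and can overlap the other motifs. These matches describe letters in a window of 300 bases, and no binding was measured.

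The troponin complex sits on the thin filament and makes contraction depend on calcium. *Tnnc2* (chr2:164777161-164779967 of GRCm38, minus strand) encodes the calcium-binding subunit of fast muscle. Its normalised counts were 357535, 331726 and 338135 in the mKD libraries and 219168, 276643 and 211508 in the WT libraries. The lowest mKD library lay above the highest WT library. The mean was 342465 ± 13438 in mKD and 235773 ± 35601 in WT (SD, n = 3 each), and the log2 fold change was 0.55 (SE 0.18, limma adjusted p = 0.19).

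*Tnni2* (chr7:142441808-142444410, plus strand), which encodes the inhibitory subunit, followed the same order of genotypes. Its counts were 246251, 221071 and 226318 in the mKD libraries and 150940, 193082 and 152225 in the WT libraries. Here too the groups did not overlap, and these were the only isoforms of which that was true, 2 of 10 against 12.1% of all genes tested that were higher and 12.7% that were lower without overlap. The mean was 231213 ± 13285 in mKD and 165416 ± 23968 in WT (SD, n = 3 each), with a log2 fold change of 0.49 (SE 0.17, limma adjusted p = 0.20). *Tnnc2* and *Tnni2* lie on different chromosomes, yet over the 6 libraries their log2 values had a Pearson's r of 0.996, the highest of any pair among the 10. The 6 points share the libraries and the genotypes, and r describes them only.

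*Tnnt3* (chr7:142498836-142516009, plus strand) encodes the third subunit, which ties the complex to tropomyosin. It lies 54425 nucleotides from *Tnni2*, with *Lsp1* between them. Its counts were 490819, 442205 and 526009 in the mKD libraries and 445069, 475093 and 341979 in the WT libraries. The groups overlapped, since mKD library 2 was below both WT library 1 and WT library 2. The log2 fold change was 0.22 (SE 0.20, limma adjusted p = 0.60). Within a library the log2 ratio of *Tnnc2* to *Tnnt3* was -0.46, -0.41 and -0.64 in the mKD libraries and -1.02, -0.78 and -0.69 in the WT libraries. This ratio did not overlap, with a difference of 0.33 (SE 0.12, exact permutation p = 0.10, two-sided, the smallest that 3 mice against 3 allow). The ratio of *Tnni2* to *Tnnt3* differed by 0.27 (SE 0.14) and the ratio of *Tnnc2* to *Tnni2* by 0.057 (SE 0.024), both with overlap (exact permutation p = 0.20 each). These subunit ratios, with that of the light chains, are 4 comparisons chosen after the values had been seen.

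The light chains bind the neck of the myosin heavy chain, and neither fast form passed the cut-off. *Mylpf* (chr7:127208890-127214298, plus strand), the regulatory light chain that is phosphorylated on contraction, had counts of 226165, 179216 and 191657 in the mKD libraries and 175084, 196480 and 138589 in the WT libraries. *Myl1* (chr1:66924295-66945404, minus strand), the essential light chain, had 138398, 130006 and 130603 in the mKD libraries and 110422, 149519 and 110355 in the WT libraries. WT library 2 was above at least 2 mKD libraries for both genes. The log2 fold change was 0.23 (SE 0.19, adjusted p = 0.54) for *Mylpf* and 0.12 (SE 0.17, adjusted p = 0.73) for *Myl1* from limma, and the log2 ratio of *Mylpf* to *Myl1* differed by 0.11 (SE 0.13, exact permutation p = 0.40). The spread of *Myl1* was uneven, with a coefficient of variation of 3.52% in mKD and 18.3% in WT.

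*Tpm1* (chr9:67022590-67049406, minus strand) encodes alpha-tropomyosin, the strand that covers the myosin sites on actin. Counts were 395491, 443307 and 422357 in the mKD libraries and 299605, 401009 and 337485 in the WT libraries. Only WT library 2 reached into the mKD range. The log2 fold change was 0.29 (SE 0.19, limma adjusted p = 0.44). The annotation gives *Tpm1* 21 transcripts, several of them used outside striated muscle, and the table does not separate them.

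At the Z-disc, where thin filaments are anchored, *Actn3* (chr19:4861216-4877909, minus strand) encodes the alpha-actinin of fast fibres. Its counts were 279778, 288864 and 294358 in the mKD libraries and 269513, 325877 and 211921 in the WT libraries, so that the mKD libraries lay inside the WT range (log2 fold change 0.12, SE 0.20, limma adjusted p = 0.79). *Myoz1* (chr14:20649107-20656540, minus strand) encodes a Z-disc protein that binds calcineurin. Its counts were 72263, 62981 and 70955 in the mKD libraries and 51356, 63697 and 41727 in the WT libraries. WT library 2 lay just above mKD library 2, and the other WT libraries lay below all mKD libraries. The log2 fold change of *Myoz1* was 0.41 (SE 0.17, limma adjusted p = 0.27).

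Of the calcium-handling pair, *Pvalb* passed the cut-off and *Atp2a1* did not, and the difference between them was not tested. *Pvalb* (chr15:78191114-78206400, minus strand), the cytosolic calcium buffer, had counts of 334143, 199060 and 264904 in the mKD libraries and 142318, 210212 and 148066 in the WT libraries. mKD library 2 lay below WT library 2, and the other mKD libraries lay above all WT libraries. The log2 fold change was 0.66 (SE 0.25, limma adjusted p = 0.23), the highest of the 10, with a coefficient of variation of 25.4% in mKD and 22.6% in WT. *Atp2a1* (chr7:126445858-126463108, minus strand), the pump that returns calcium to the reticulum, had 1288601, 1121698 and 1439074 in the mKD libraries and 1149206, 1340925 and 1042242 in the WT libraries. The groups overlapped broadly (log2 fold change 0.12, SE 0.23, limma adjusted p = 0.81).

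**Figure D1:**
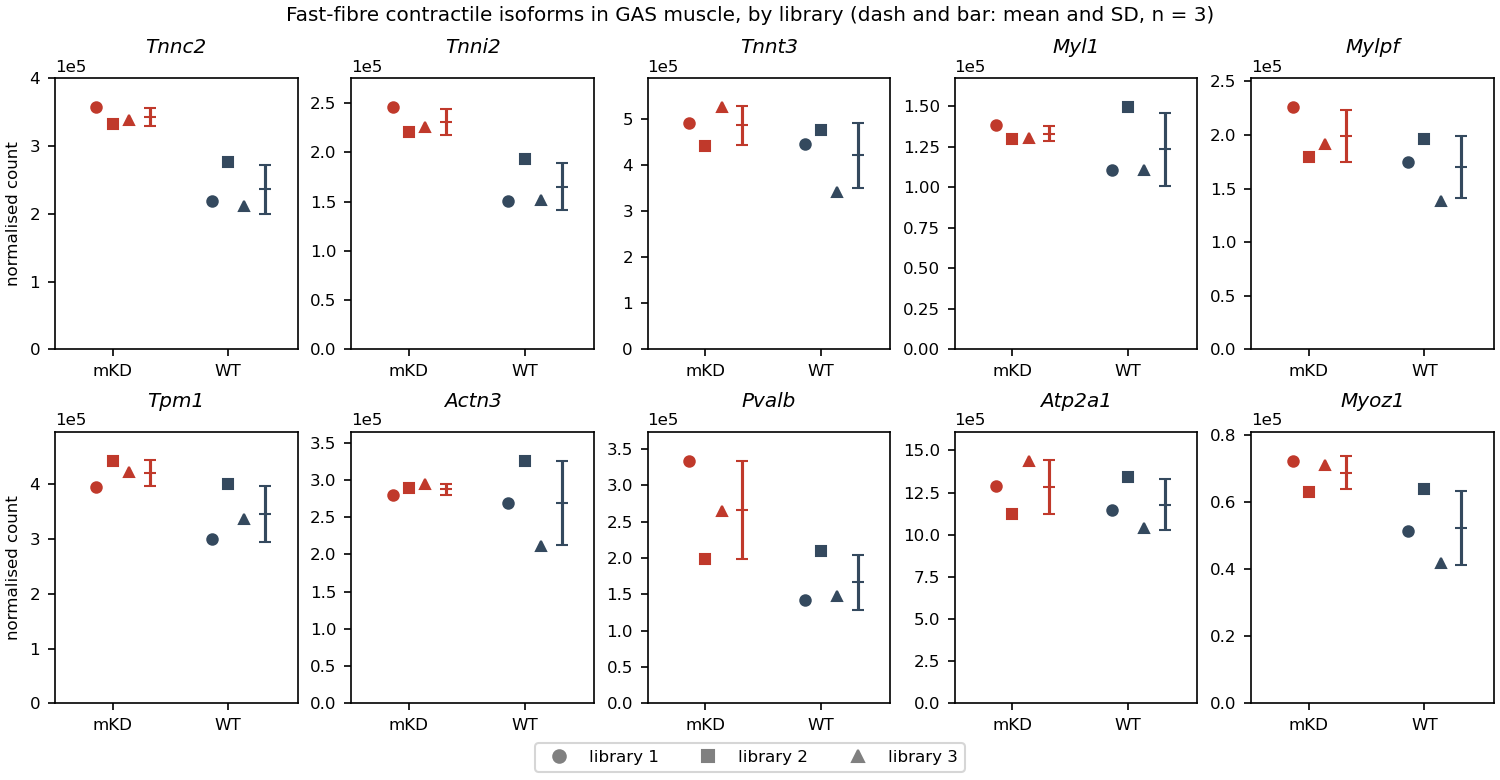
Normalised count (vertical axis, from 0, with ticks scaled as printed above each panel) of each fast-fibre isoform in the 3 mKD (red, left) and 3 WT (dark blue, right) libraries, with the symbol giving the library number and the dash and bar the mean and SD. *Tnnc2* and *Tnni2* are the only panels in which each mKD library is above each WT library, and WT library 2 (square) is the highest WT library in all 10.

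Together the 10 isoforms took 15.2%, 13.2% and 14.8% of all reads in the mKD libraries and 11.7%, 13.8% and 11.0% in the WT libraries. The mean share was 14.4 ± 1.06% in mKD and 12.2 ± 1.43% in WT (SD, n = 3 each), and mKD library 2 lay below WT library 2. *Atp2a1* had the second highest mean count of all genes, and all 10 were among the first 50. Compared per length, as RPKM computed from the recovered reads and the longest transcript, *Tnnc2* had 18944 ± 1102 in mKD and 13113 ± 1618 in WT, and *Tnnt3* had 17440 ± 1448 in mKD and 15171 ± 2108 in WT. These neighbours overlapped within mKD and changed order between genotypes. In the order of the mKD means, *Atp2a1* followed with 14275 ± 1681 in mKD and 13186 ± 1303 in WT, then *Pvalb* (10563 ± 2851 in mKD, 6643 ± 1328 in WT), *Mylpf* (10070 ± 1421 in mKD, 8636 ± 1239 in WT) and *Tnni2* (10006 ± 767 in mKD, 7198 ± 861 in WT), which did not differ beyond their spread in mKD. In WT the order of the means was another, with *Pvalb* below both *Mylpf* and *Tnni2*. *Atp2a1* and *Tnnc2* did not differ beyond their spread in WT. *Tpm1* (5627 ± 256 in mKD, 4666 ± 613 in WT), *Myl1* (4760 ± 263 in mKD, 4440 ± 695 in WT) and *Actn3* (3855 ± 19.1 in mKD, 3623 ± 661 in WT) came next, apart in mKD and overlapping in WT, and *Myoz1* was lowest at 2064 ± 169 in mKD and 1576 ± 286 in WT. With the median annotated transcript as the length, *Mylpf* moved up to 20542 in mKD and 17617 in WT, so the order depends on which transcript is used.

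The isoforms varied together from library to library. Relative to its WT mean, the mean log2 level of the 10 was 0.40, 0.22 and 0.35 in the mKD libraries and -0.06, 0.26 and -0.19 in the WT libraries, so that WT library 2 lay above mKD library 2. mKD library 1 was the highest of the 6 for 5 isoforms, mKD library 3 for 2, WT library 2 for 2 (*Myl1* and *Actn3*) and mKD library 2 for 1 (*Tpm1*). WT library 3 was the lowest for 7 and WT library 1 for 3. Each isoform's Pearson's r with the mean of the other 9 over the 6 libraries was between 0.739 (*Actn3*) and 0.986 (*Myoz1*), and the lowest pair was *Mylpf* with *Tpm1* (r = 0.477). Of 10230 genes with a mean count of at least 50 outside the lists used here, 192 had an r above 0.9 with the mean of the 10. The 5 most alike were *Arrb2* (r = 0.995), *Prkab2* (0.992), *Tsr3* (0.988), *Sesn2* (0.988) and *Kpna2* (0.988), each over 6 libraries that also differ in genotype.

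Transcript length moved with these fold changes. Over 12315 genes with a length, Spearman's rho of the log2 fold change with the longest annotated transcript was -0.45, and over the 10 isoforms it was -0.56, both given across genes and as descriptions. *Tnnc2* (700 nucleotides), *Mylpf* (766), *Tnni2* (895), *Pvalb* (977), *Tnnt3* (1079), *Myl1* (1082) and *Myoz1* (1289) belong to those 1234 short genes, whose median log2 fold change was 0.31. Of these 7, the isoforms *Tnnc2*, *Tnni2*, *Pvalb* and *Myoz1* were above that median and *Tnnt3*, *Mylpf* and *Myl1* below it. *Tpm1* (2890) and *Actn3* (2887) belong to a class of like length with a median of 0.08, and *Atp2a1* (3477) to one with 0.04.

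**Figure D2:**
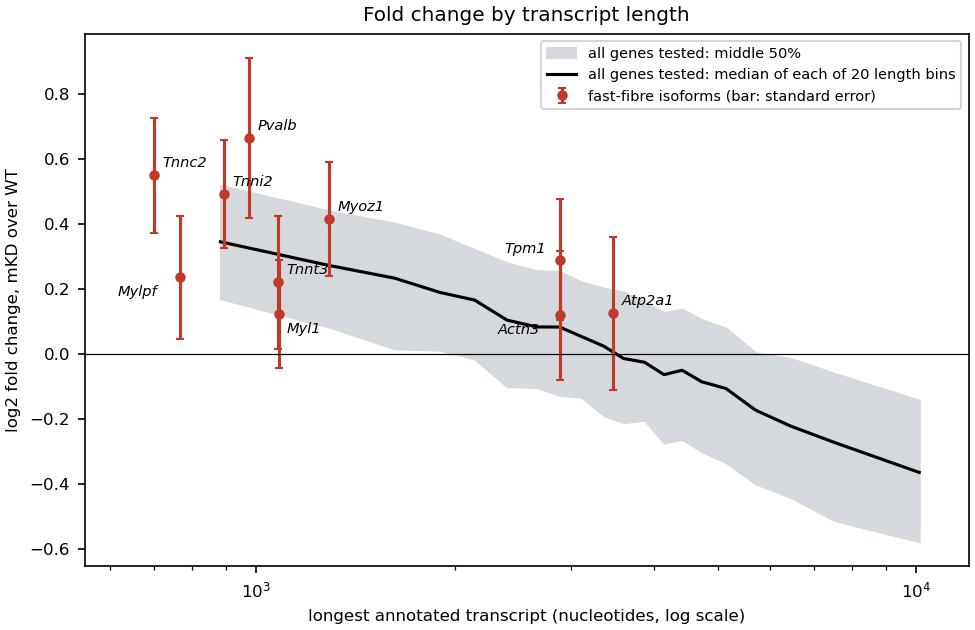
Log2 fold change, mKD over WT (vertical axis), against the longest annotated transcript in nucleotides (log scale). The black line and grey band give the median and the middle 50% of all genes tested in 20 length bins. Red points with standard errors are the 10 isoforms. *Pvalb*, *Tnnc2*, *Tnni2*, *Myoz1*, *Tpm1*, *Actn3* and *Atp2a1* lie above the median of their length bin, and *Mylpf*, *Tnnt3* and *Myl1* below it.

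When the trend of each library over the longest transcript was removed, none of the 10 isoforms passed the 1.2-fold cut-off in limma, against 5.04% of all genes that were higher and 5.46% that were lower. The log2 fold change was then 0.36 (SE 0.25) for *Pvalb*, 0.24 (0.18) for *Tpm1*, 0.19 (0.18) for *Tnnc2*, 0.17 (0.16) for *Tnni2* and 0.16 (0.18) for *Myoz1*. It was below 0 for *Tnnt3* (-0.067), *Mylpf* (-0.11) and *Myl1* (-0.16), each within its standard error or close to it. With the median transcript as the length, *Tnni2* (0.41, SE 0.16) and *Pvalb* (0.58, SE 0.25) passed the cut-off, against 6.67% of all genes that were higher and 8.06% that were lower, and *Tnnc2* did not (0.40, SE 0.17). Of the higher calls, none held under both lengths. How much of these fold changes belongs to length and how much to the genes was not tested.

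**Figure D3:**
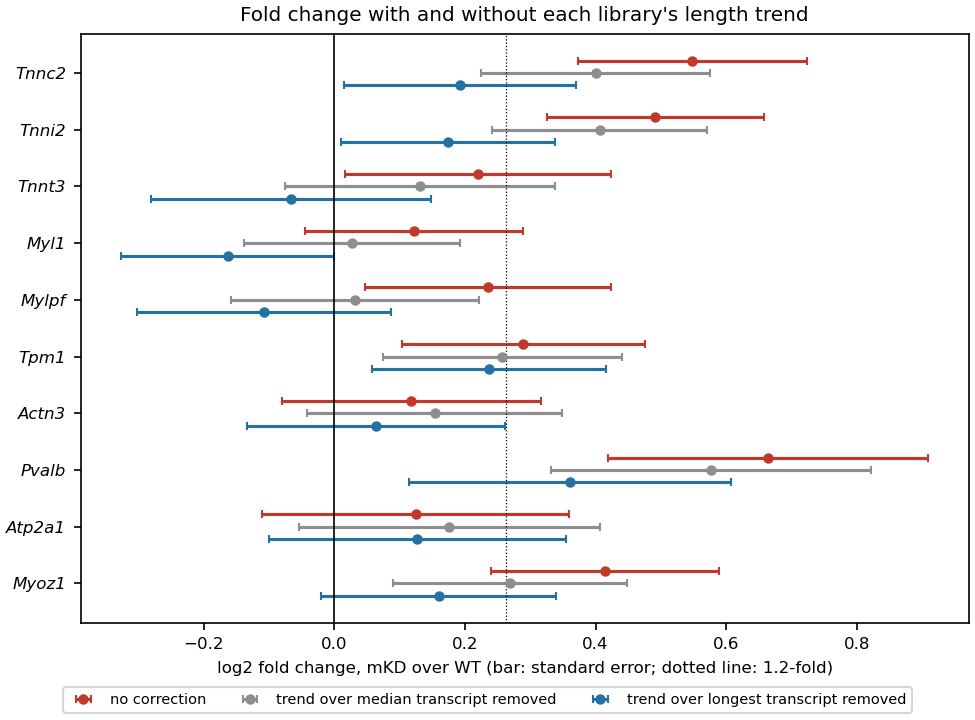
Log2 fold change, mKD over WT (horizontal axis, bar: standard error from limma), of each isoform with no correction (red), with the trend over the median transcript removed (grey) and with the trend over the longest transcript removed (blue). Red points are all right of 0, and blue points of *Tnnt3*, *Myl1* and *Mylpf* are left of it.

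Each isoform but *Pvalb* was set against a partner of slow muscle or, for *Actn2*, of all fibres. The partners were *Tnnc1*, *Tnni1*, *Tnnt1*, *Myl2*, *Myl3*, *Tpm3*, *Actn2*, *Atp2a2* and *Myoz2*. None of these 9 passed the 1.2-fold cut-off in either direction, and none was free of overlap. Of the 9, 7 had a positive log2 fold change, against 51.1% of all genes tested, and their median was 0.51, against 0.26 for the fast isoforms. They varied far more than the fast forms. Together they took 0.227%, 0.565% and 0.263% of reads in the mKD libraries and 0.355%, 0.109% and 0.745% in the WT libraries. Their mean share was 0.351 ± 0.186% in mKD and 0.403 ± 0.321% in WT (SD, n = 3 each). By mean share they were thus not higher in mKD, although most of their log2 fold changes were positive. *Tnnc1*, the slow troponin C, had counts of 3243, 9060 and 3007 in the mKD libraries and 4161, 179 and 10961 in the WT libraries. *Myh7*, the slow myosin heavy chain, had 15419, 47928 and 15066 in the mKD libraries and 32502, 661 and 74831 in the WT libraries. WT library 2 thus stood apart with few reads of slow isoforms, and WT library 3 held the most.

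The fast isoforms mirrored this within a genotype. WT library 2, the lowest of all libraries for 8 of the 9 slow partners, was the highest WT library for all 10 fast isoforms, and WT library 3, the highest of all libraries for 8 slow partners, was the lowest WT library for 7 fast isoforms. In mKD, library 2 was the highest for all 9 slow partners and the lowest for 8 of the 10 fast isoforms. With the mean log2 level of the slow partners in a library as a covariate, an alternative chosen after seeing the data, the same 4 isoforms were higher by the cut-off, against 8.25% of all genes that were higher and 9.32% that were lower, and none passed an adjusted p of 0.05, nor did any gene of the table. The log2 fold changes were then 0.75 (SE 0.18) for *Pvalb*, 0.59 (0.14) for *Tnnc2*, 0.54 (0.13) for *Tnni2* and 0.48 (0.11) for *Myoz1*, with adjusted p = 0.16 to 0.17 from limma. The part of fibre composition in these values cannot be told apart from genotype with 3 mice in each group.

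Taken as a ratio within each library, fast over slow, none of the 9 pairs separated the genotypes. The log2 ratio of *Tnnc2* to *Tnnc1* was 6.78, 5.19 and 6.81 in the mKD libraries and 5.72, 10.59 and 4.27 in the WT libraries. That of *Atp2a1* to *Atp2a2* was 7.41, 5.67 and 7.29 in the mKD libraries and 6.40, 9.88 and 4.60 in the WT libraries. In both, all mKD values lay between WT library 2 and WT library 3. The difference, mKD minus WT, was positive for 2 of 9 pairs, *Myoz1* to *Myoz2* (0.52, SE 0.84) and *Actn3* to *Actn2* (0.20, SE 0.60), and was between -0.62 and -0.16 for the other 7. Over the 9 pairs the two-sided exact permutation p was 0.70 to 1.0 and 1.0 after Benjamini-Hochberg adjustment for each. The sign depended on single libraries. Without WT library 2 the difference was positive for all 7 of these, at 1.27 for *Tnnc2* to *Tnnc1* and 1.29 for *Atp2a1* to *Atp2a2*. Without mKD library 2 it was positive for 5 of them, at 0.16 for *Tnni2*, 0.0018 for *Mylpf*, 0.33 for *Myl1*, 0.26 for *Tpm1* and 0.39 for *Atp2a1*. The 2 pairs with a positive difference turned below 0 without WT library 3, at -0.19 for *Actn3* and -0.091 for *Myoz1*, and *Actn3* also without mKD library 1 (-0.079).

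**Figure D4:**
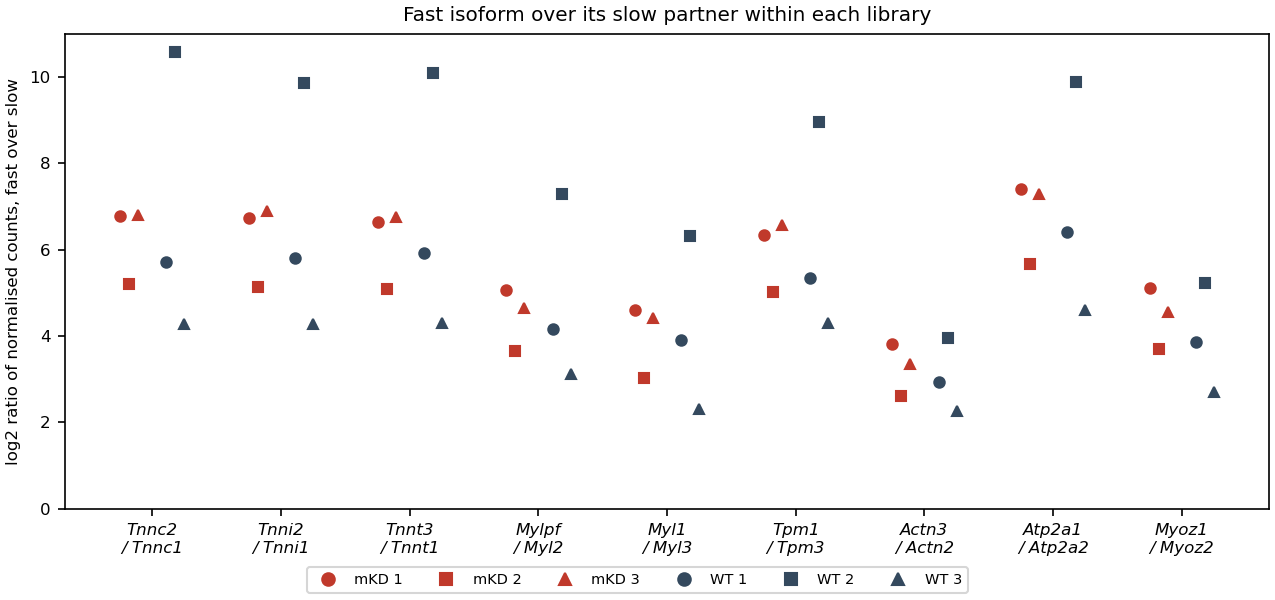
Log2 ratio of normalised counts, fast isoform over its slow partner (vertical axis, from 0), within each of the 3 mKD (red) and 3 WT (dark blue) libraries for 9 pairs, with the symbol giving the library number. WT library 2 (square) is the highest value in each pair and WT library 3 (triangle) the lowest.

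Without a length correction, the fast myosin heavy chains did not follow the light chains in sign. *Myh4*, the heavy chain of type IIB fibres, had counts of 1144869, 982932 and 1505949 in the mKD libraries and 1466478, 1663177 and 1181608 in the WT libraries (log2 fold change -0.26, SE 0.27, limma adjusted p = 0.64). *Myh1* of type IIX fibres had -0.52 (SE 0.41) and *Myh2* of type IIA fibres -0.53 (SE 0.37), both with overlapping groups. *Myh7* had 0.93 (SE 1.56), although its mean count was lower in mKD, at 26138 against 35998 in WT. None of the 4 passed the 1.2-fold cut-off. These genes have long transcripts (6016 to 6230 nucleotides).

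Other genes of fast fibres, 12 in a list of glycolytic and contractile genes, gave no call in either direction. Of the 12, 11 had a positive log2 fold change, against 51.1% of all genes tested, with a median of 0.13. Groups did not overlap for 2 of the 12, both higher in mKD, against 12.1% of all genes that were higher without overlap. These 2 were *Eno3*, the muscle enolase, with 129666, 133646 and 127697 in the mKD libraries and 88431, 126374 and 109261 in the WT libraries (log2 fold change 0.29, SE 0.17), and *Ldha*, lactate dehydrogenase A (0.27, SE 0.13). *Mylk2*, the kinase of the regulatory light chain, had 0.25 (SE 0.12) and *Myoz3* -0.29 (SE 0.18), both with overlap.

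Among 20 other genes of the thin filament and the Z-disc, 1 was higher and 1 lower by the cut-off, against 8.31% and 9.51% of all genes. *Tcap*, telethonin, which caps titin at the Z-disc, had 146614, 131345 and 111911 in the mKD libraries and 73515, 71790 and 87744 in the WT libraries, with no overlap (log2 fold change 0.74, SE 0.16, limma adjusted p = 0.13). *Neb*, the giant thin-filament protein nebulin, had 122405, 150097 and 157813 in the mKD libraries and 222602, 228024 and 187450 in the WT libraries, also with no overlap (log2 fold change -0.57, SE 0.17, limma adjusted p = 0.18). *Acta1*, the actin on which the fast troponins sit, had 1069593, 1039680 and 1106276 in the mKD libraries and 1102118, 1188714 and 1107213 in the WT libraries (log2 fold change -0.08, SE 0.21). *Lmod3* (-0.31, SE 0.18) and *Pdlim7* (0.24, SE 0.14) overlapped, and the median of the 20 was 0.04. With the trend over the longest transcript removed, *Tcap* was again the higher call and *Lmod3*, not *Neb*, the lower one.

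A list of 25 regulators of muscle fibre genes was also read, and not all of them are particular to fast fibres. By the cut-off 6 of the 25 were lower in mKD, against 9.51% of all genes, and none was higher, against 8.31%. None passed an adjusted p of 0.05 in limma. Their median log2 fold change was -0.30, and 8 of the 25 were positive. *Six4*, a homeodomain factor, was lower without overlap. It had 264, 431 and 572 in the mKD libraries and 706, 775 and 707 in the WT libraries (log2 fold change -0.86, SE 0.26, limma adjusted p = 0.18). *Sox6*, a repressor of slow genes (-0.30, SE 0.12), and *Nfatc3* of the calcineurin pathway (-0.59, SE 0.16) were lower without overlap, and *Tead1* (-0.87, SE 0.26) and *Tead4* (-0.81, SE 0.28), which bind MCAT sites of muscle genes, were lower with overlap. With the trend over the longest transcript removed, 4 of the 25 were lower, against 5.46% of all genes, *Tead4*, *Nfatc3* and *Six4* among them, and the median was -0.07. *Sox6* is named beyond the rule, after its values had been seen.

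Developmental and cardiac isoforms gave no call, 0 of the 6 tested, and *Tnni3* and *Myl7* did not pass the filter on low counts. *Myh3*, the embryonic heavy chain, had a log2 fold change of -0.71 (SE 0.34), *Tnnt2*, cardiac troponin T, -0.63 (SE 0.33), *Actc1*, cardiac actin, -0.90 (SE 0.65) and *Myl4*, an atrial light chain, 0.57 (SE 0.46). Their counts were below those of the fast forms but spread widely. *Tnnt2* had the lowest mean of those tested, with 51.0, 111 and 69.4 in the mKD libraries and 83.9, 128 and 137 in the WT libraries. *Myh8*, named beyond the rule, had the highest. Its counts were 12135, 8969 and 13907 in the mKD libraries and 15399, 13523 and 11148 in the WT libraries.

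*Tnnc2* overlaps *Ube2c* and *Atp2a1* overlaps *Rabep2* on the opposite strand, and whether strand was used in counting was not stated in those sources. The highest count was 504 for *Ube2c* and 475 for *Rabep2* in any library, far below the isoforms. *Tnnt3* overlaps *Prr33*, for which no value was used here.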

How the data were processed

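Libraries of GAS muscle RNA came from a stranded poly(A) kit. The authors deposited, for each gene and library, a normalised signal, which is the read count divided by 1 factor per library. The table also holds p-values and log2 fold changes of the authors, which run WT over mKD, and score columns deposited from DESeq2 (Wald statistic and standard error). None of these comparison columns was used. The methods name Partek Flow 9.0.20.0622 and DESeq2, the submitters' notes name GRCm38 (mm10), and neither source names the aligner or the counter.

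Reads were recovered by dividing by each library's smallest positive value, and 100% of values were whole within 0.0001. Since the values are not raw counts, log2(value + 1) was tested with limma 3.58.1 (trend, R 4.3.3), without covariates. The p-values were adjusted by Benjamini-Hochberg across 12322 genes, those that passed edgeR's filter on low counts. Fold changes are on the log2(value + 1) scale. Calls were made at an adjusted p under 0.05, after the false discovery rate in the study's methods, and at 1.2-fold with p under 0.05, the cut-off of its results, where adjustment is not mentioned. The alternatives were edgeR 4.0.16 and DESeq2 1.42.0 on these reads, other scalings, pseudocounts (0.5 and 4) and filters, removal of each library's trend over log2 transcript length (lowess, span 0.3; GENCODE M21, 99.4% of identifiers matched) and leaving out libraries. RPKM was computed from the recovered reads. Fast to slow ratios were compared with two-sided exact permutation tests, and the smallest p for 3 mice against 3 is 0.10. Scripts were tested on simulated data. The isoforms, gene lists and tests were chosen with earlier results of these data known. The genes named are all isoforms, their slow partners, 4 myosin heavy chains, up to 4 genes of each other list with the smallest p, *Tet3* and the 5 genes most like the isoforms' mean. Not every listed gene is reported here.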

Additional observations from a re-analysis of the deposited data

How the results depend on the processing

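The number of isoforms higher by the 1.2-fold cut-off, 4, was the result that depended most on the setting. It was 0 with the trend over the longest transcript removed, 2 with the median transcript as length, 0 with no filter on low counts, 3 with upper-quartile scaling, 0 without mKD libraries 1 and 3 (the libraries with most nerve and fat RNA, where the lone mKD library is assumed to vary like WT), and 1 at 1.5-fold. Leaving out 1 library at a time gave 0 to 4, with 0 without WT library 1, 1 without WT library 3, 1 without mKD library 1 and 2 without mKD library 3. Over all genes, 1467 to 2304 passed the cut-off in either direction in these fits. The share of all genes that was higher was not worked out with upper-quartile scaling or at 1.5-fold, so these 2 counts have no background. The number at an adjusted p of 0.05 was 2 with DESeq2 and 0 under each other setting. The median log2 fold change stayed between 0.14 and 0.37. Whether the replicate numbers pair the samples is not stated. Deviations of same-numbered samples from their group means had r of 0.055, -0.051 and -0.076. These cannot decide it, since each group's deviations are tied to its own mean. A replicate block gave 0 isoforms, also with the length trend removed. With the block alone, 1742 of all genes passed the cut-off in either direction, against 2196 in the main fit.

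Signs turned for *Tnnt3* (-0.067), *Myl1* (-0.16) and *Mylpf* (-0.11) with the trend over the longest transcript removed, with and without the replicate block, for *Atp2a1* (-0.062) without mKD libraries 1 and 3, and for *Actn3* without WT library 3 (lowest -0.043, highest 0.27 over libraries left out). Leaving out 1 library gave fast to slow differences of -1.89 to 1.27 for *Tnnc2*, -1.57 to 1.21 for *Tnni2*, -1.85 to 1.05 for *Tnnt3*, -1.27 to 0.82 for *Mylpf*, -1.10 to 0.91 for *Myl1*, -1.17 to 1.16 for *Tpm1*, -0.19 to 0.66 for *Actn3*, -1.35 to 1.29 for *Atp2a1* and -0.091 to 1.17 for *Myoz1*. Beyond the construction of each setting, the cause was not tested.

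Over all genes, 2196 passed the 1.2-fold cut-off, against 1294 with the length trend removed, 1051 with the block as well and 1193 without mKD libraries 1 and 3. At an adjusted p of 0.05 there were 2 with limma, 535 with DESeq2 and 0 to 4 under the other settings. The scalings tried left the median of all genes between -0.0024 and 0.022. The number of mice, not the depth, limits the precision for these abundant genes.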
